A study of Apis mellifera with 15 samples.

Results

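Brain libraries of forager honey bees (Apis mellifera) fed thiacloprid, 5 at 25 ng per bee and 5 at 250 ng per bee, were taken as 1 exposed group of 10 and set against the 5 libraries of solvent-fed bees. These are all 15 libraries of the series. The samples were chosen by their labels alone, and the question was which transcripts differ from the control at both doses. All 3 groups were adult worker bees from 1 unpolluted site, kept in PET bottles and fed sucrose solution for 72 h, with thiacloprid at either dose or with the solvent only. Each library was made from the messenger RNA of a pool of 5 dissected brains, so the spread between replicates is a spread between pools of bees. Replicate 1 at 250 ng/bee is the only library whose label starts with 20191023, where the other 14 start with 20190809, and neither the labels nor the files used here explain the prefix. Results are given with all 15 libraries and again without that library.

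Thiacloprid is a neonicotinoid insecticide. Neonicotinoids bind the nicotinic acetylcholine receptor, the ion channel through which acetylcholine excites insect neurons, and acetylcholine is the main excitatory transmitter of the insect brain. Cytochrome P450 enzymes take part in breaking down thiacloprid in bees, and bees tolerate it better than the nitro-substituted neonicotinoids. In honey bees, neonicotinoid exposure has been studied for its effects on learning, foraging and immune defence, and the gene groups described here follow those topics.

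Total counts ranged between 8123655 and 10067138 in libraries of the 25 ng/bee dose, between 6834898 and 29208991 in those of the 250 ng/bee dose, and between 9226059 and 11500655 in controls. The largest total belonged to replicate 1 at 250 ng/bee, and without it the exposed maximum was 11180170. In that library 54.7% of the tested genes lay outside the range of the 5 controls, against 25.3% to 51.9% in the other 9 exposed libraries. Neuronal and glial markers were detected in every library, with none of the 3 neuronal and none of the 4 glial markers at 0. Transcripts of hypopharyngeal and salivary gland products took 4.97% to 22.0% of all counts in exposed libraries and 4.41% to 22.6% in controls.

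No gene passed the test between the exposed and the control bees. With all 15 libraries, edgeR's quasi-likelihood F test with Benjamini-Hochberg adjustment (two-sided, threshold 0.05) called 0 of 9560 genes (0% of those tested), and the smallest adjusted p was 0.663. At an unadjusted p under 0.05 there were 714 genes, or 7.47% of those tested, where 478 would be reached by chance on average. Of these, 246 (2.57%) were higher and 468 (4.9%) were lower in exposed brains. The 714 became 362 when control replicate 3 was left out and 1419 when replicate 1 of the higher dose was. The count was likewise 0 in DESeq2, which had 728 genes at an unadjusted p under 0.05, and 0 in limma-voom with weighted samples, which had 1938. All fold changes below are log2 values of exposed over control from edgeR, and levels are CPM, counts divided by a TMM-scaled library size. In pooled brains, fewer cells of a type and less RNA per cell cannot be told apart.

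The exposed and control libraries did not overlap in 6 genes, or 0.0628% of those tested. A number of this order would separate by chance alone among that many genes, so the 6 are listed as a description. LOC414039, at 18546487 to 18547386 on chromosome 1, had 14.7, 15.2, 15.6, 17.0 and 15.04 CPM at 25 ng/bee and 18.4, 17.2, 19.8, 17.8 and 18.3 CPM at 250 ng/bee, against 14.1, 11.6, 14.2, 11.2 and 12.1 CPM in controls. Every exposed library lay above every control, and all 5 libraries at the higher dose lay above all 5 at the lower dose. Its log2 fold change was 0.42 ± 0.11 (SE), and 0.29 and 0.53 at the 2 doses (adjusted p = 0.663 in edgeR). LOC724256, on chromosome 3, ranged from 37.5 to 52.7 CPM with a median of 43.4 CPM in exposed bees, against 37.1, 29.0, 34.8, 33.8 and 35.5 CPM in controls. LOC412194, on chromosome 6, ranged from 93.7 to 117 CPM with a median of 96.7 CPM in exposed bees, against 85.8, 85.2, 91.5, 91.5 and 92.7 CPM in controls; the lowest exposed library lay just above the highest control.

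The other 3 genes lay lower in every exposed library than in any control. LOC413146, at 4383128 to 4387376 on chromosome 2, had 38.2, 34.7, 38.5, 30.7 and 31.3 CPM at 25 ng/bee and 34.8, 31.3, 32.3, 31.5 and 26.3 CPM at 250 ng/bee, against 41.1, 39.1, 45.3, 48.6 and 39.5 CPM in controls. The difference was -0.37 ± 0.09 on the log2 scale, with -0.30 at 25 ng/bee and -0.45 at 250 ng/bee. LOC726679, also on chromosome 2, ranged from 33.9 to 43.4 CPM with a median of 39.6 CPM in exposed bees, against 47.5, 51.2, 45.05, 44.1 and 44.99 CPM in controls. LOC552209, on chromosome 13, ranged from 113 to 181 CPM with a median of 147 CPM in exposed bees, against 184, 181, 188, 189 and 182 CPM in controls. Its highest exposed library, at 180.69 CPM, lay just below the lowest control, at 180.78 CPM, and with 14 libraries the groups overlapped. The span of LOC552209 overlaps that of TpnCIIb on the other strand. Neither the files nor the reference gene table name a product for these 6 loci. Leaving out 1 library at a time gave 7 to 50 genes without overlap. The count was 50 without replicate 1 at 250 ng/bee, 11, 24 and 18 without replicates 1, 2 and 3 at 25 ng/bee, and 22, 19, 19 and 47 without control replicates 1, 2, 4 and 5.

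**Figure D1:**
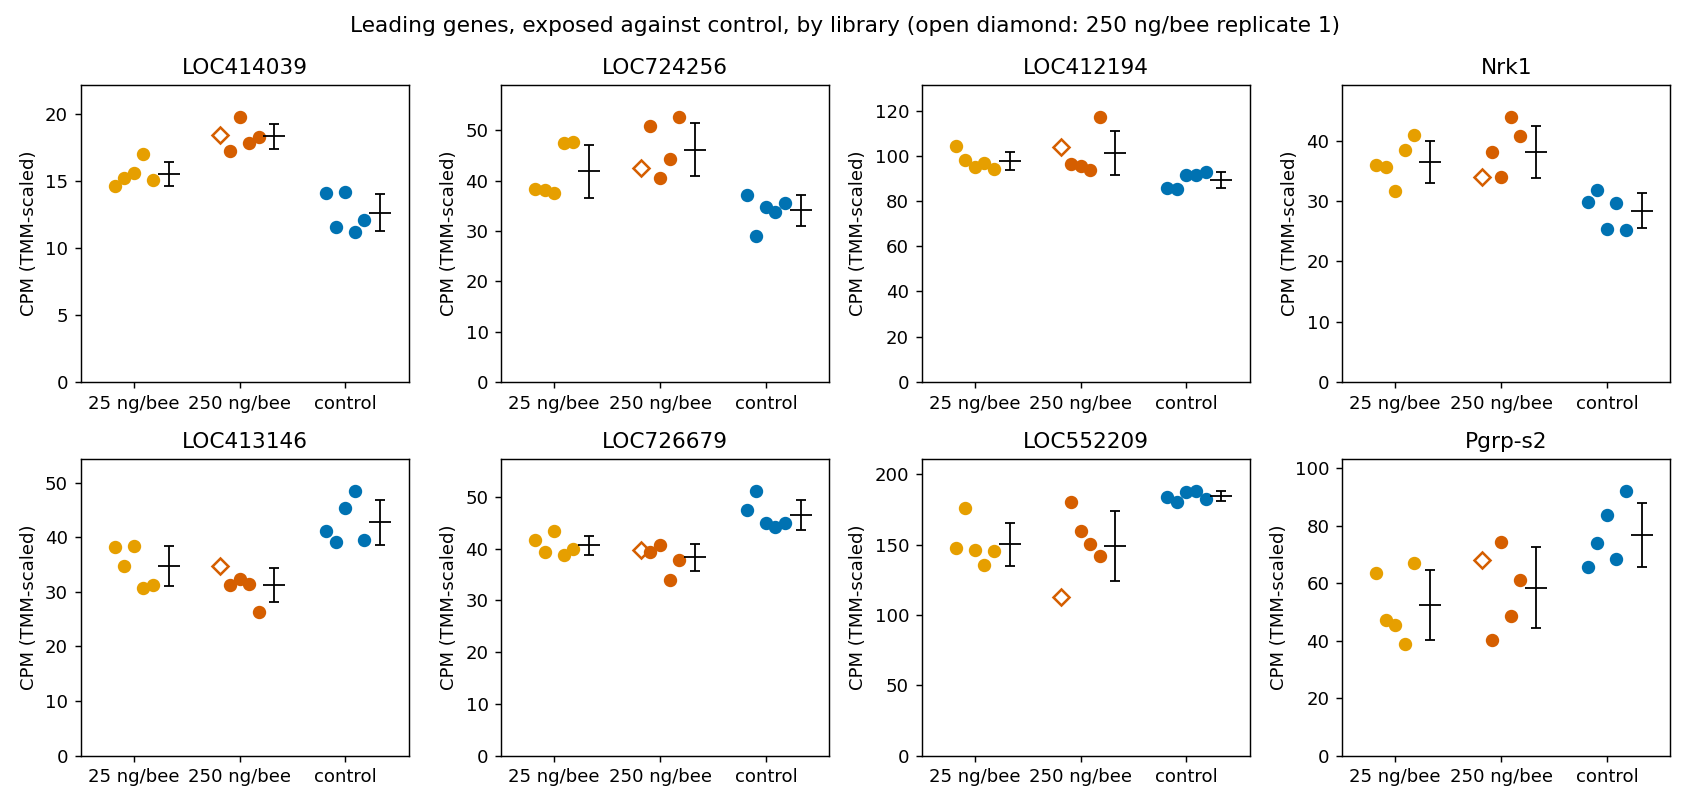
TMM-scaled CPM in each library for the 6 genes without overlap and for Nrk1 and Pgrp-s2, with 25 ng/bee and 250 ng/bee to the left of the control (n = 5 each). Points are libraries, the open diamond is replicate 1 at 250 ng/bee, and the bars give the mean and SD. In Nrk1 the exposed libraries start at 31.6 CPM and the controls reach 31.9 CPM.

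Nrk1 had the lowest p of all genes that were higher in exposed bees, at 0.000402 before adjustment (adjusted p = 0.663 in edgeR). It had 36.1, 35.8, 31.6, 38.4 and 41.0 CPM at 25 ng/bee and 34.1, 38.1, 34.0, 44.0 and 40.8 CPM at 250 ng/bee, against 29.9, 31.9, 25.5, 29.7 and 25.3 CPM in controls. Each of the 10 exposed libraries exceeded the control mean, and 1 of them lay within the control range. The log2 fold change was 0.39 ± 0.09, with 0.36 ± 0.10 at 25 ng/bee and 0.42 ± 0.10 at 250 ng/bee. Among genes that were lower, the lowest p belonged to LOC410535, on chromosome 14. It averaged 21.5 ± 3.74 CPM in exposed bees (SD, n = 10) and 32.8 ± 7.20 CPM in controls (SD, n = 5), and the difference was -0.61 ± 0.14 on the log2 scale, equal at the 2 doses at -0.61. LOC411229, on chromosome 7, averaged 15.5 ± 2.48 CPM in exposed bees and 21.8 ± 1.59 CPM in controls, with 10 of 10 exposed libraries below the control mean. LOC113219396, on chromosome 1, had a log2 fold change of -0.40 ± 0.09 and LOC408717, on chromosome 2, one of -0.40 ± 0.11, each below the control mean in 10 of 10 libraries.

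A pair of weakly expressed genes showed larger folds. LOC726377, on chromosome 4, ranged from 0.747 to 3.14 CPM with a median of 1.62 CPM in exposed bees, against 3.45, 3.12, 3.75, 3.71 and 6.50 CPM in controls, a log2 fold change of -1.24 ± 0.33. Only 1 exposed library, replicate 5 at 250 ng/bee, exceeded the lowest control. LOC552279, on chromosome 8, ranged from 2.74 to 10.98 CPM with a median of 6.97 CPM in exposed bees, against 3.90, 3.86, 2.93, 3.37 and 4.87 CPM in controls, a log2 fold change of 0.91 ± 0.26. In LOC552279, 9 of 10 exposed libraries lay above the control mean, and neither gene passed (adjusted p = 0.663 for both in edgeR).

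Among genes with a symbol, A4 had the lowest p of those that were higher after Nrk1. It ranged from 47.8 to 357 CPM with a median of 131 CPM in exposed bees, against 30.8, 64.8, 78.4, 54.3 and 82.3 CPM in controls, and its log2 fold change was 1.26 ± 0.43. Replicates 2 and 3 at 25 ng/bee, at 81.7 and 47.8 CPM, and replicate 3 at 250 ng/bee, at 49.2 CPM, lay within the control range, and the remaining exposed libraries lay between 86.6 and 357 CPM. PHRF1, named for its PHD and RING finger domains, averaged 158 ± 13.5 CPM in exposed bees and 136 ± 7.51 CPM in controls, and each of the 10 exposed libraries exceeded the control mean. Cdc37, which encodes a co-chaperone that brings protein kinases to Hsp90, averaged 211 ± 22.8 CPM in exposed bees and 181 ± 16.0 CPM in controls. Of the genes with a symbol that were lower, NOS, which makes the diffusible messenger nitric oxide and takes part in memory formation in the bee brain, averaged 69.5 ± 7.89 CPM in exposed bees and 82.9 ± 10.5 CPM in controls, below the control mean in 10 of 10 libraries. None of these 4 genes passed (each with an adjusted p of 0.663 in edgeR).

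Without replicate 1 at 250 ng/bee more of the genes under an unadjusted p of 0.05 were higher than lower in exposed bees. In edgeR, 0 of 9617 genes (0%) passed and the smallest adjusted p was 0.133, with 1419 genes (14.8%) at an unadjusted p under 0.05, where 481 would be reached by chance. Of these, 836 (8.69%) were higher and 583 (6.06%) were lower in exposed bees. By sign alone, 47.9% of the tested genes were higher and 52.1% lower. Of the 9556 genes tested in both fits, 627 were under 0.05 in both; the fits share 14 libraries. The number of genes without overlap was 50 (0.52%), 42 of them higher, and 5 of the 6 genes described above were among them. With 1 further library left out, this count was 91, 88, 93 and 121 for controls 1, 2, 4 and 5, and 112 and 115 for replicates 2 and 3 of the lower dose. The count at an unadjusted p under 0.05 then ran from 867, after also leaving out control replicate 3, to 1841.

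The tools differed in this comparison of 14 libraries. DESeq2 called 127 genes (1.32%), of which 97 were higher and 30 lower, and limma-voom called 35 (0.364%), of which 23 were higher and 12 lower. All 35 were among the 127, which is 27.6% of the DESeq2 calls and 100% of the limma-voom calls, and edgeR gave all 127 an unadjusted p under 0.05. Nrk1, Tsf1 and PHRF1 were the 3 with a symbol. Tsf1, which encodes transferrin, an iron-binding protein of the haemolymph, had 3326, 3399, 3514, 2946 and 3261 CPM at 25 ng/bee and 4111, 3170, 3728, 3353 and 2749 CPM at 250 ng/bee, against 3434, 4280, 4195, 4720 and 4019 CPM in controls. Its log2 fold change in edgeR was -0.30 ± 0.13 with 15 libraries and -0.32 ± 0.11 with 14 (DESeq2 adjusted p = 0.0136 with 14).

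Several of the genes with the lowest p in this comparison were ones in which replicate 1 at 250 ng/bee departed from the other exposed libraries. LOC727048, on chromosome 10, had 21.1, 22.1, 19.3, 24.4 and 20.7 CPM at 25 ng/bee and 5.09, 22.0, 24.1, 24.5 and 22.0 CPM at 250 ng/bee, against 16.7, 18.5, 13.6, 16.2 and 12.2 CPM in controls. The other 9 exposed libraries lay above all controls and replicate 1 at 250 ng/bee lay below all of them, so the log2 fold change was 0.41 ± 0.25 with 15 libraries and 0.54 ± 0.10 with 14. LOC100578259, on chromosome 8, had 16.5 CPM in that library and 37.9 to 48.9 CPM in the other 9, against 33.8, 33.3, 27.7, 36.8 and 31.5 CPM in controls. LOC102654768, on chromosome 15, had 5.62 CPM in that library and 11.1 to 18.6 CPM in the other 9, against 9.53, 6.48, 7.63, 10.7 and 7.31 CPM in controls. LOC413200, also on chromosome 15, ran the other way, with 26.4 CPM in that library and 8.50 to 17.0 CPM in the other 9, against 18.5, 24.3, 24.8, 20.4 and 17.8 CPM in controls. Over all tested genes, replicate 1 at 250 ng/bee lay below every control in 31.1% and above every control in 23.6%. Of the 97 genes that DESeq2 called as higher, replicate 1 at 250 ng/bee lay below every control in 81, within the control range in 11 and above every control in 5. The median difference from the control mean, in log2(CPM + 1), was 0.37 in the other 9 exposed libraries and -0.89 in replicate 1 at 250 ng/bee. Of the 30 genes called as lower it lay above every control in 11, within their range in 12 and below every control in 7.

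**Figure D2:**
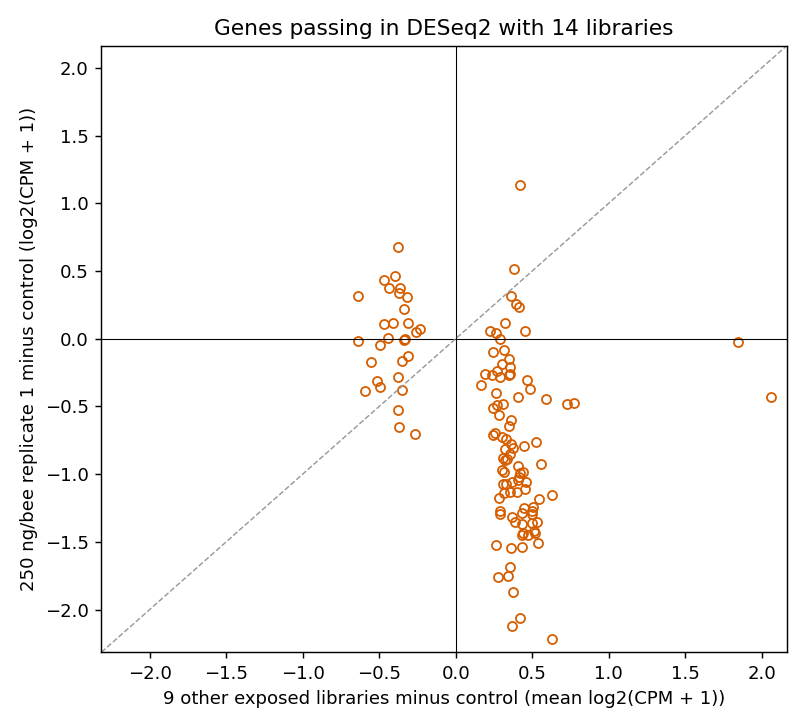
The 127 genes called by DESeq2 without replicate 1 at 250 ng/bee, with the mean log2(CPM + 1) of the other 9 exposed libraries minus the control mean on the x axis and replicate 1 at 250 ng/bee minus the control mean on the y axis, and a dashed line where both are equal. Most genes on the right lie below 0 on the y axis, as 87 of the 97 higher genes had the opposite sign in that library.

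The pooled comparison was then read at each dose. The doses share the 5 controls, so their fold changes are given side by side and the count of genes common to both is a description. With 15 libraries, 112 genes (1.17%) differed from the control in the same direction at both doses with an unadjusted p under 0.05 each, 44 higher and 68 lower, and 0 of them passed the pooled test in edgeR. With 14 libraries the count was 357 (3.71%), 239 higher and 118 lower, again with 0 passing. The 112 became 57 and 191 without control replicates 3 and 5, and 189, 64 and 53 without replicates 3, 4 and 5 at 25 ng/bee. The 357 became 215 without control replicate 3, and 539, 230 and 217 without replicates 3, 4 and 5 at 25 ng/bee. Set against the control alone with 15 libraries, 250 ng/bee had 0 genes that passed (0%; smallest adjusted p 0.277 in edgeR), with 1144 at an unadjusted p under 0.05, 429 higher and 715 lower, where chance would give 478 (723 without control replicate 3). DESeq2 called 53 genes there and limma-voom 390. With 14 libraries 250 ng/bee had 248 genes that passed in edgeR (2.58%), 212 higher and 36 lower, and 2051 under 0.05 unadjusted. Leaving out 1 further library brought that count to 0 in 5 cases, namely replicates 1 and 3 of the controls and replicates 2, 4 and 5 of the higher dose. It was 69 and 64 without control replicates 2 and 4, 141 and 151 without replicates 1 and 2 at 25 ng/bee, and 463 without replicate 3 at 250 ng/bee. For 25 ng/bee 0 genes passed with either set of libraries in edgeR, DESeq2 and limma-voom, and the genes under 0.05 unadjusted in edgeR numbered 235 with 15 libraries and 511 with 14, where chance would give 478 and 481. With 1 library left out the 235 became 132, 142 and 154 without control replicate 3 and replicates 4 and 5 at 25 ng/bee. The 511 became 327 and 338 without the first 2 of these, and reached 736 at the highest. The direct comparison of the doses, which holds no control library, called 0 genes in edgeR with either set of libraries. Unadjusted, 477 genes (4.99%) were under 0.05 with 15 libraries and 770 (8.01%) with 14, and the smallest adjusted p was 0.934 and 0.578. With 1 library left out these counts were 297 to 770 and 450 to 1201, lowest without replicate 2 at 25 ng/bee and replicate 5 at 250 ng/bee, and highest without replicates 1 and 3 of the higher dose. DESeq2 called 0 and 3 genes. The dose means differed in JHBP-1, a juvenile hormone binding protein by name, with 17.9, 15.5, 19.3, 14.6 and 16.0 CPM at 25 ng/bee and 55.2, 32.8, 28.3, 39.2 and 17.4 CPM at 250 ng/bee, against 23.7, 7.36, 22.9, 22.9 and 7.82 CPM in controls. Its pooled log2 fold change of 0.60 ± 0.36 stands beside -0.03 at the lower and 1.03 at the higher dose, and the difference between the doses of 1.06 ± 0.33 did not pass (adjusted p = 0.934 in edgeR).

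The receptor that thiacloprid binds was measured through 10 nicotinic subunit genes. Of these, 4 were higher and 6 lower in exposed bees, with a median log2 fold change of -0.02, beside a median of -0.02 over all tested genes, of which 46% were higher and 54% lower. None passed in edgeR, and 1 of the 10 was under 0.05 unadjusted, beside 7.47% of all tested genes. That gene was nAChRb1, a beta subunit, with 7.06, 8.86, 5.27, 4.38 and 7.46 CPM at 25 ng/bee and 6.51, 4.36, 6.83, 5.69 and 4.05 CPM at 250 ng/bee, against 7.28, 12.2, 9.03, 6.07 and 7.92 CPM in controls. The groups overlapped widely, and the log2 fold change of -0.48 ± 0.20 was -0.31 without control replicate 2. The alpha subunit nAChRa2 averaged 47.4 ± 7.42 CPM in exposed bees and 55.5 ± 7.04 CPM in controls. The largest positive value was 0.37 ± 0.23 for nAChRa9, and nAChRa1, nAChRa3, nAChRa6, nAChRa7 and nAChRb2 lay between -0.03 and 0.05. AChE-2, an acetylcholinesterase, the enzyme that ends the acetylcholine signal, averaged 640 ± 88.9 CPM in exposed bees and 676 ± 69.6 CPM in controls, a log2 fold change of -0.08 ± 0.11.

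Other genes of the synapse mostly had negative log2 fold changes, and none passed in edgeR. All 9 synaptic vesicle and active zone genes had negative log2 fold changes, with a median of -0.18 at 15 and at 14 libraries, and 0 passed in edgeR. Under an unadjusted p of 0.05 there were 2 with 15 libraries and 1 with 14, all lower, beside 4.9% and 6.06% of all tested genes. Nrx-1, a neurexin, an adhesion protein that links the partners of a synapse, had 7.17, 9.27, 8.57, 3.84 and 5.39 CPM at 25 ng/bee and 5.58, 5.49, 5.44, 6.86 and 4.32 CPM at 250 ng/bee, against 6.45, 13.3, 8.68, 9.11 and 8.94 CPM in controls. All 10 exposed libraries lay below the control mean, and the log2 fold change was -0.58 ± 0.21, with -0.43 and -0.74 at the 2 doses. Syx1A, the syntaxin of the vesicle fusion machinery, averaged 411 ± 39.1 CPM in exposed bees and 474 ± 58.3 CPM in controls, and its difference of -0.20 ± 0.09 was -0.13 without control replicate 5, the highest library at 573 CPM. The neuroligins, postsynaptic partners of neurexin, had log2 fold changes of -0.18 for NLG-3, -0.39 for NLG-4 and -0.28 for NLG-5.

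Of 16 receptors for amines and amino acid transmitters, 15 had negative values, with a median log2 fold change of -0.17 with either set of libraries. Of all tested genes, 54% were lower by sign with 15 libraries. The metabotropic glutamate receptor mGlutR1 averaged 38.6 ± 6.30 CPM in exposed bees and 47.2 ± 7.76 CPM in controls. It was the only 1 of the 16 under 0.05 unadjusted, at 0.0230 (adjusted p = 0.663 in edgeR), beside 4.9% of all tested genes that were lower at that threshold. Control replicate 5 held 60.9 CPM of it, and without that library the difference of -0.29 was -0.18. The octopamine receptor Oa1 had -0.32 ± 0.18, and the dopamine receptors Dop1, DopR2 and Dop3 had -0.09 ± 0.12, -0.32 ± 0.19 and -0.54 ± 0.35. All 7 voltage-gated channel genes had negative values with a median of -0.17, among them Para, the sodium channel of the action potential, with -0.11 ± 0.10. With 14 libraries 2 of the 7, Cac and LOC551883, had values of 0.04 and 0.01. The 6 kinase and signalling genes of learning and plasticity had a median of -0.13, with values from -0.28 to -0.03, and 0 passed. For, the cGMP-dependent protein kinase linked to foraging, averaged 40.1 ± 10.5 CPM in exposed bees and 48.7 ± 7.54 CPM in controls.

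**Figure D3:**
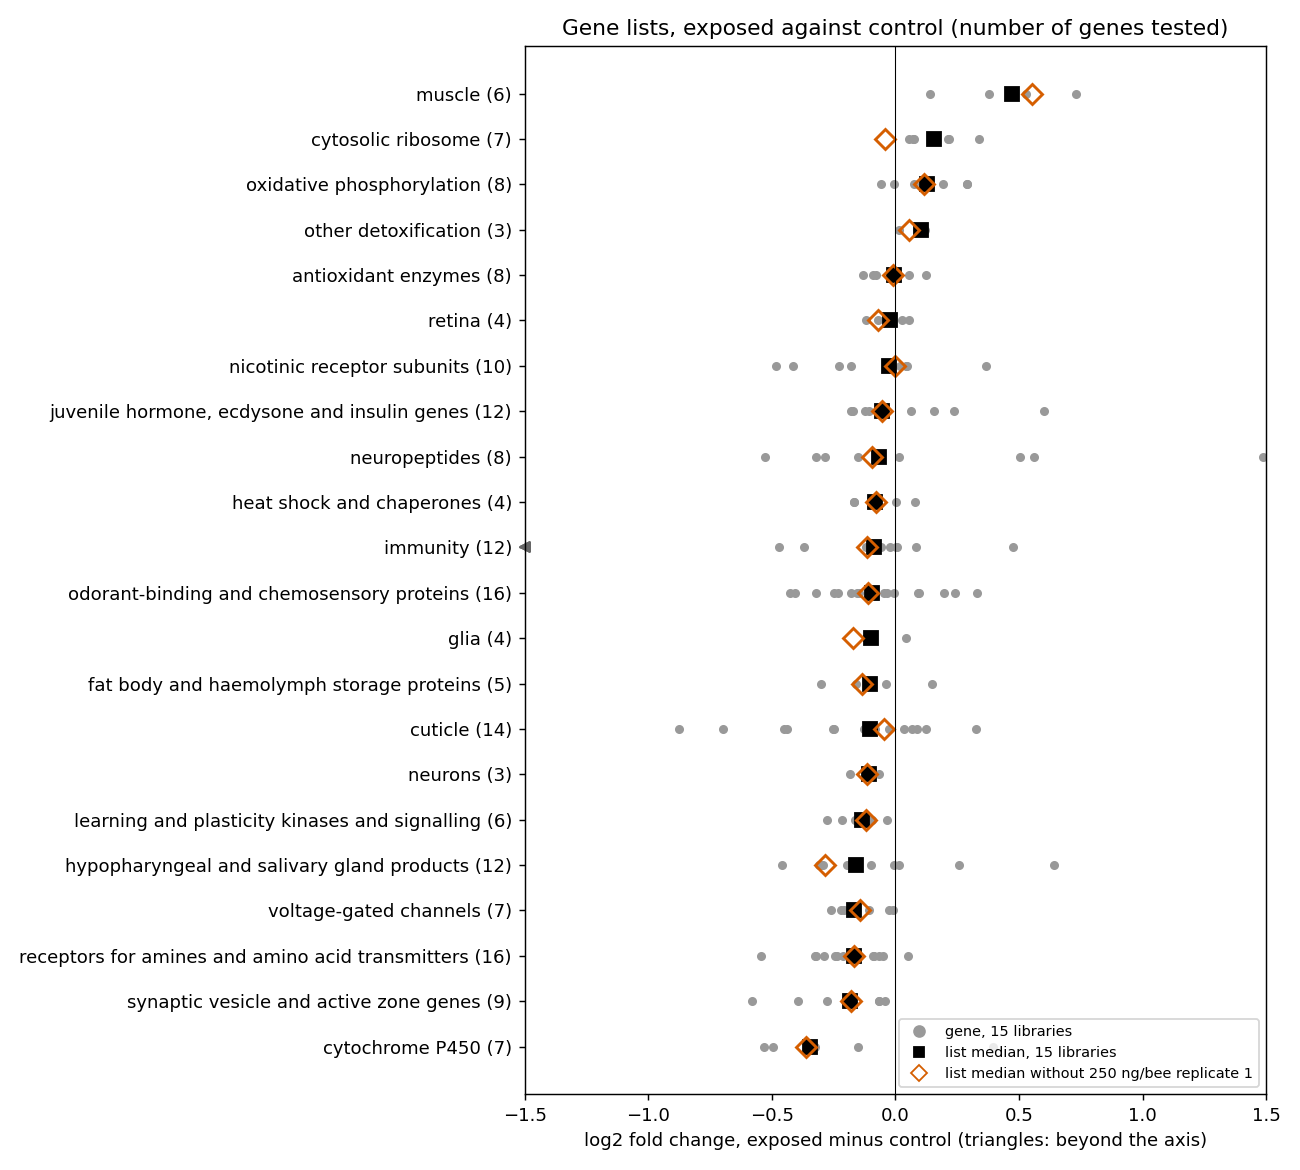
Log2 fold change, exposed over control, of every tested gene in the 22 lists with at least 3 tested genes, with 1 grey point per gene, the list median with 15 libraries as a square and the median without replicate 1 at 250 ng/bee as an open diamond. The muscle list has the highest median at 0.47 and the cytochrome P450 list the lowest at -0.35, and the ribosomal list changes sign when that library is left out.

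No detoxification gene passed the test. Of 7 listed cytochrome P450 genes 6 had negative values, with a median log2 fold change of -0.35 with 15 libraries, and 7 of 7 with a median of -0.36 with 14. None passed in edgeR. Under an unadjusted p of 0.05 there were 1 with 15 libraries and 3 with 14, all lower, beside 4.9% and 6.06% of all tested genes. LOC551028, which the reference table lists as CYP6AS13, had 390, 327, 420, 305 and 255 CPM at 25 ng/bee and 356, 254, 363, 318 and 219 CPM at 250 ng/bee, against 353, 447, 469, 416 and 353 CPM in controls. In 9 of 10 exposed libraries it lay below the control mean, and the log2 fold change was -0.35 ± 0.14 (adjusted p = 0.663 in edgeR). CYP6AQ1 had 55.3 CPM in replicate 1 at 250 ng/bee and 18.2 to 42.9 CPM in the other 9, against 81.7, 19.0, 47.4, 43.2 and 37.8 CPM in controls. Its log2 fold change was -0.49 ± 0.27 with 15 libraries, -0.61 ± 0.25 with 14 and -0.18 without control replicate 1. Cyp6as5 and Cyp4g11 had log2 fold changes of -0.33 ± 0.18 and -0.53 ± 0.38. Only genes matched by symbol or synonym are in the list, so it is a part of the family.

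The 3 tested genes for glutathione transferases, which couple glutathione to foreign compounds, had log2 fold changes of 0.12 ± 0.16 for GstD1, 0.10 ± 0.14 for GstS1 and 0.02 ± 0.58 for GstS4. GstD1 averaged 20.9 ± 4.80 CPM in exposed bees and 19.2 ± 3.31 CPM in controls. The 8 antioxidant genes had a median of -0.01, 3 higher and 5 lower, from -0.13 for the thioredoxin reductase Trxr-1 to 0.13 for the peroxidase Tpx-3. Superoxide dismutases Sod1 and Sod2 differed by 0.06 ± 0.11 and -0.01 ± 0.09. The 4 chaperone genes had a median of -0.08, and the mitochondrial chaperone Hsc70-5 averaged 287 ± 41.8 CPM in exposed bees and 322 ± 26.9 CPM in controls.

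The immune list held the most negative log2 fold changes of all lists, and those of 3 genes were much nearer 0 without control replicate 4. Of 12 tested members 4 were higher and 8 lower (median log2 fold change -0.09), 1 higher and 4 lower were under 0.05 unadjusted, beside 2.57% and 4.9% of all tested genes, and 0 passed in edgeR. Apid1 encodes the antimicrobial peptide apidaecin. It had 35.8, 96.6, 430, 101 and 78.4 CPM at 25 ng/bee and 41.8, 110, 144, 59.2 and 51.6 CPM at 250 ng/bee, against 80.1, 299, 50.3, 3538 and 71.8 CPM in controls. The exposed median of 87.5 CPM lay close to the control median of 80.1 CPM, and 1 control held 3538 CPM. The fitted log2 fold change of -2.82 ± 0.81 was -0.12 without control replicate 4.

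LOC406142 and LOC406144 followed the same libraries. LOC406142 ranged from 62.0 to 1680 CPM with a median of 167 CPM in exposed bees, against 572, 1109, 50.7, 4832 and 46.3 CPM in controls, and LOC406144 ranged from 130 to 1063 CPM with a median of 266 CPM in exposed bees, against 431, 1265, 207, 4386 and 330 CPM in controls. Their log2 fold changes of -1.94 ± 0.89 and -1.77 ± 0.59 were -0.36 and -0.53 without control replicate 4. Def1, a defensin, ranged from 6977 to 29202 CPM with a median of 14184 CPM in exposed bees, against 5389, 19287, 21691, 14171 and 12224 CPM in controls, so that groups overlapped throughout. Its log2 fold change of 0.01 ± 0.32 was -0.15 without replicate 1 at 250 ng/bee, which held the highest level.

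**Figure D4:**
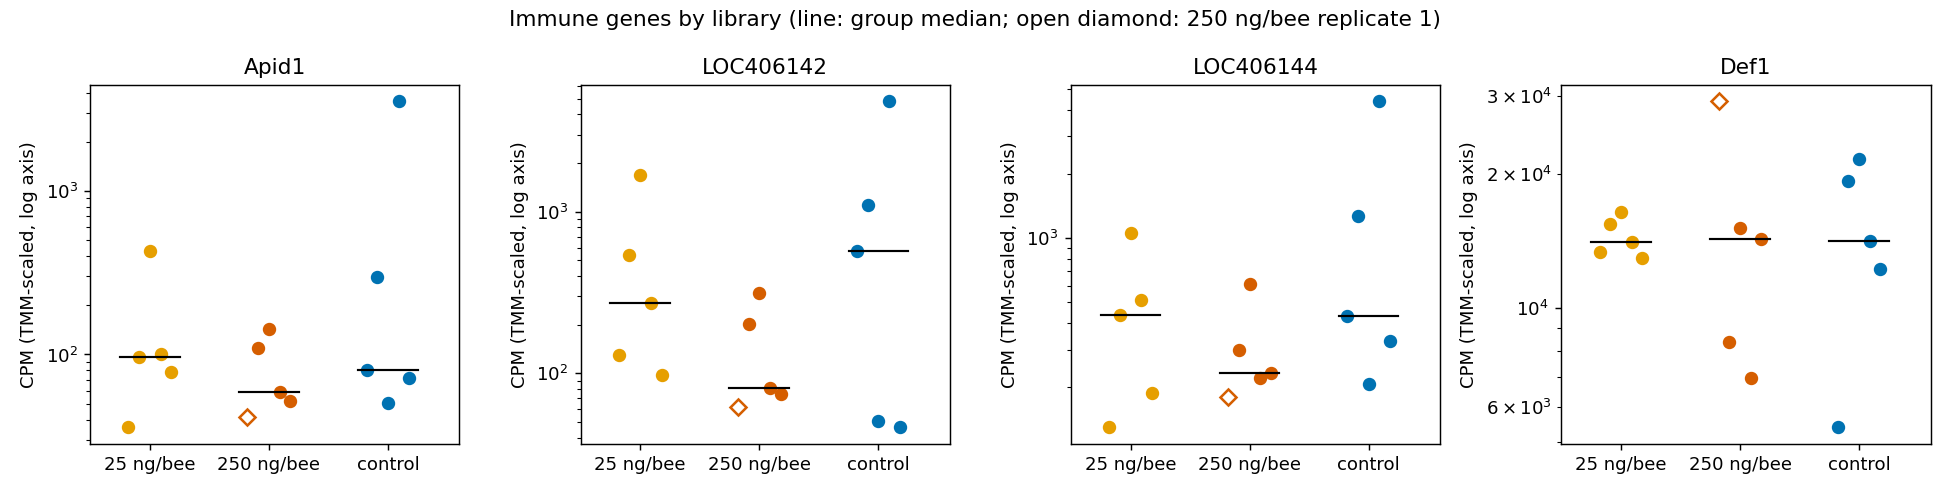
TMM-scaled CPM on a log axis of Apid1, LOC406142, LOC406144 and Def1 in each library (n = 5 per group), with 25 ng/bee and 250 ng/bee to the left of the control. Lines are group medians and the open diamond is replicate 1 at 250 ng/bee. In the first 3 genes the highest point is control replicate 4, and within exposed bees it is replicate 3 at 25 ng/bee.

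The peptidoglycan recognition proteins, sensors of bacterial cell walls, had values of both signs. Pgrp-s2 had 63.6, 47.4, 45.4, 38.9 and 66.9 CPM at 25 ng/bee and 68.3, 40.1, 74.4, 48.6 and 61.2 CPM at 250 ng/bee, against 65.6, 73.9, 83.9, 68.5 and 92.3 CPM in controls. All 10 exposed libraries lay below the control mean, and the log2 fold change was -0.47 ± 0.15 with 15 libraries and -0.50 ± 0.15 with 14. PGRP-S3 had 22.0, 17.2, 44.0, 17.2 and 21.2 CPM at 25 ng/bee and 21.1, 19.3, 19.4, 15.7 and 22.1 CPM at 250 ng/bee, against 12.8, 20.6, 14.2, 17.6 and 13.7 CPM in controls. Its log2 fold change of 0.47 ± 0.21 was 0.31 without replicate 3 at 25 ng/bee. Neither passed in edgeR (adjusted p = 0.663 for both). Imd and Dl, of the Imd and Toll pathways, differed by 0.00 ± 0.10 and 0.08 ± 0.12.

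Signalling peptides and hormone genes scattered on both sides of 0. Of 8 neuropeptide genes 4 were higher and 4 lower, and their median log2 fold change was -0.07. Crz, the precursor of the stress-related peptide corazonin, averaged 7.79 ± 2.46 CPM in exposed bees and 5.32 ± 2.59 CPM in controls, and Apime-ASTA, the allatostatin A precursor, averaged 16.3 ± 4.19 CPM in exposed bees and 19.9 ± 3.30 CPM in controls. The difference of Apime-ASTA was -0.48 at 25 ng/bee and -0.11 at 250 ng/bee. The 12 genes of juvenile hormone, ecdysone and insulin signalling had a median of -0.05, and the clock gene Per had -0.29 ± 0.17, which was -0.11 without control replicate 2. Among 16 tested odorant-binding and chemosensory genes, 5 were higher and 11 lower with a median of -0.10. Obp21 averaged 55.7 ± 14.9 CPM in exposed bees and 73.6 ± 20.5 CPM in controls. No member of these 4 lists passed in edgeR.

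Genes of energy production had mostly positive values, and those of the ribosome did so with 15 libraries only. Of 8 oxidative phosphorylation genes 6 were higher and 2 lower, and their median log2 fold change was 0.13 with 15 and 0.12 with 14 libraries. Ndufs5, a subunit of respiratory complex I, had 214, 177, 163, 236 and 250 CPM at 25 ng/bee and 248, 245, 185, 267 and 221 CPM at 250 ng/bee, against 164, 173, 158, 200 and 208 CPM in controls. The groups overlapped, and the log2 fold change of 0.29 ± 0.12 did not pass (adjusted p = 0.663 in edgeR). Cox6c, a subunit of cytochrome c oxidase, had 0.19 ± 0.11. All 7 ribosomal protein genes were higher with 15 libraries, with a median of 0.16, but with 14 libraries 3 were higher and 4 lower with a median of -0.04. With 15 libraries the ribosomal median was -0.05 at 25 ng/bee and 0.36 at 250 ng/bee, and 2 of the 7 were higher at both doses. Replicate 1 at 250 ng/bee held 508 CPM of Rpl41 and 638 CPM of RpL32, while the other 9 exposed libraries reached 341 and 350 CPM and the controls 254 and 321 CPM.

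Markers of tissues that lie next to the brain were compared in the same way. The 12 gland products, royal jelly proteins and alpha-glucosidases, had a median log2 fold change of -0.16 with 15 libraries, 3 higher and 9 lower, with standard errors of up to 0.69. With 14 libraries the median was -0.28, with 1 higher and 11 lower. All 6 tested muscle genes, troponins, were higher, with a median of 0.47 with 15 and 0.55 with 14 libraries and none under 0.05 unadjusted. Their summed share of all counts was 0.0131% to 0.137% in exposed libraries and 0.00785% to 0.0901% in controls, with at most 1 of 7 markers at 0 in any library. TpnCIIIa, a troponin C of muscle, ranged from 24.3 to 204 CPM with a median of 92.3 CPM in exposed bees, against 9.08, 14.8, 18.1, 33.5 and 207 CPM in controls. Its log2 fold change of 0.73 ± 0.63 was 2.31 without control replicate 5, the control with the highest muscle share, and 0.45 without control replicate 1. The part of muscle RNA in the other differences was not tested.

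Fat body and haemolymph markers had a median log2 fold change of -0.10, 1 higher and 4 lower, and their summed share was 0.308% to 0.459% in exposed libraries and 0.364% to 0.504% in controls. Tsf1 carried most of that sum. Retinal opsins had a median of -0.02, and Lop1, the long-wavelength opsin, ranged from 1900 to 8446 CPM with a median of 4317 CPM in exposed bees, against 6276, 2626, 6180, 4436 and 5030 CPM in controls. Glial markers had a median of -0.10 and neuronal markers one of -0.11. The 14 tested cuticle genes had a median of -0.10, 5 higher and 9 lower, with CPR22 at -0.87 ± 0.40 and CPR4 at 0.33 ± 0.15. CPR22 ranged from 0.843 to 7.44 CPM with a median of 4.00 CPM in exposed bees, against 6.53, 3.62, 7.51, 4.81 and 16.6 CPM in controls, and its difference was -0.40 without control replicate 5. None of the 181 list members tested passed in edgeR.

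Fold changes followed transcript length across all genes. Tested genes were split into 10 bins of nearly equal size by length, the mean length of a gene's transcripts weighted by FPKM. The median log2 fold change was 0.13 in the shortest bin, with a median length of 651 nt, and -0.10 and -0.08 in the 2 longest bins, with median lengths of 4577 and 7167 nt. With 14 libraries these medians were 0.12, -0.08 and -0.06. Genes at an unadjusted p under 0.05 that were higher had a median length of 1085 nt, those that were lower 3598 nt, and all tested genes 2112 nt. Lists of long genes had negative medians, such as the synaptic list with a median length of 5916 nt. Lists of short genes had medians of both signs, with 0.16 for the ribosomal list at 565 nt (-0.04 with 14 libraries), -0.10 for the odorant-binding and chemosensory list at 597 nt and -0.07 for the neuropeptides at 677 nt.

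The trend was also measured library by library, as the median deviation of log2(CPM + 1) from the mean of all libraries over genes of up to 841 nt minus that over genes of 5483 nt or more. At 25 ng/bee this index was -0.03, -0.23, -0.08, 0.15 and 0.04, and at 250 ng/bee 0.24, 0.12, 0.13, 0.15 and 0.23, against -0.07, -0.19, -0.18, -0.04 and -0.13 in controls. It averaged 0.07 ± 0.15 in exposed bees (SD, n = 10) and -0.12 ± 0.07 in controls (SD, n = 5), with 8 of 10 exposed libraries above the highest control. The difference of 0.19 had a p of 0.0193 in an exact two-sided permutation test. Without replicate 1 at 250 ng/bee it was 0.17 with a p of 0.0290 in the same test. The index restates the trend described above in the same libraries, so these p-values are no independent support for it. All 5 libraries at 250 ng/bee lay above every control, while 2 of the 5 at 25 ng/bee lay within the control range or below it. With the trend removed from each library, 506 genes were under 0.05 unadjusted with 15 libraries and 0 passed in edgeR. The log2 fold change was then -0.50 ± 0.19 for Nrx-1, -0.11 ± 0.07 for Syx1A and -0.20 ± 0.09 for mGlutR1. Among shorter genes it was 0.16 ± 0.09 for Ndufs5, 0.13 ± 0.13 for Rpl41 and 0.04 ± 0.16 for RpL32. Of the leading genes, Nrk1 had 0.26 ± 0.09, LOC414039 had 0.28 ± 0.10 and LOC413146 had -0.29 ± 0.08.

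**Figure D5:**
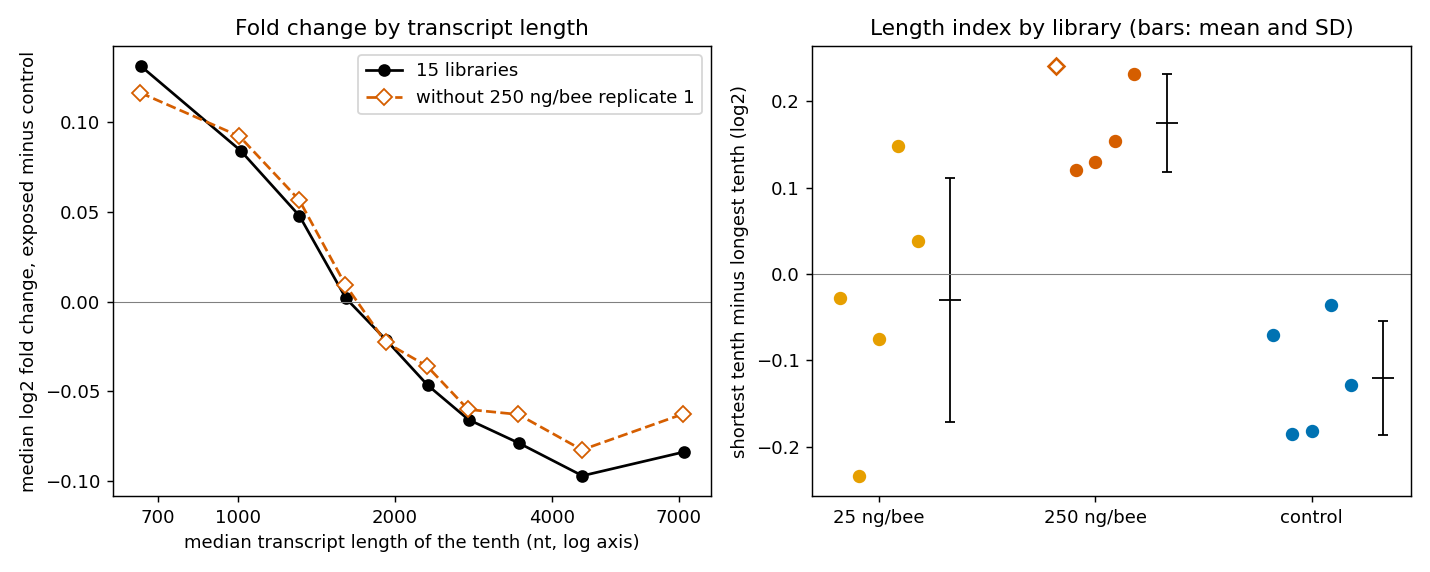
Left, the median log2 fold change, exposed over control, in 10 bins of the tested genes by transcript length (log axis, nt) with 15 libraries and without replicate 1 at 250 ng/bee. Right, the length index of each library with mean and SD (n = 5 per group), with 25 ng/bee and 250 ng/bee to the left of the control and the open diamond for replicate 1 at 250 ng/bee. The curve starts at 0.13 in the shortest bin and reaches -0.10 in the second longest, and the 250 ng/bee libraries lie above all controls.

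Single transcripts gave no call either. In limma on log2(FPKM + 1), 0 of 14930 transcripts (0%) passed with 15 libraries and 621 (4.16%) were under 0.05 unadjusted, where chance would give 746. With 14 libraries 0 of 14693 (0%) passed, 867 (5.9%) were under 0.05 unadjusted and the smallest adjusted p was 0.128.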

How the data were processed

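Messenger RNA of 15 brain pools was sequenced after poly-A selection with a stranded kit, per the labels' protocols. The submitters' processing notes name HISAT2 2.1.0 and StringTie 2.0.2, beside Trimmomatic 0.39, SAMtools 1.7 and DESeq2 1.22.2; neither settings nor genome build were among the sources read. The deposited StringTie tables, per the file headers, hold coverage and FPKM per transcript and gene coordinates. The authors' gene table holds estimated counts, which equal coverage × length / 75 within 1 count for 100% of the values; they were rounded to whole numbers. Start and end of 12069 of 12112 genes (99.6%) equal those of Amel_HAv3.1 in the reference gene table, and all gene positions are the deposited ones. No source read says whether the counting used strand, and 19 of the 65 genes followed in the alternatives overlap a gene on the opposite strand, among them LOC410535, LOC411229, LOC414039, LOC552209, LOC406142, LOC406144, Pgrp-s2, Nrx-1 and Tsf1.

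Genes were filtered with filterByExpr (9560 kept of 12112, holding 99.96% of all counts) and tested with edgeR 4.0.16 in R 4.3.3 (TMM, quasi-likelihood F test, exposure as the only term, and a fit of 3 groups for the doses; SE = |log2 fold change| / √F). Transcript FPKM were tested as log2(FPKM + 1) with limma 3.58.1 where at least 5 libraries held an FPKM of 1 or more, since FPKM are not counts. Fold changes of weakly expressed transcripts are understated on that scale. All tests were two-sided, and p-values were adjusted by Benjamini-Hochberg over all features tested. Nothing says whether the pools came from separate colonies, so p-values measure the spread between these pools. The alternatives were other scaling, no low-count filter, DESeq2 1.42.0 (adjusted p not given for 2239 genes with 14 libraries), limma-voom, robust spread, a replicate block, removal of the length trend, and each library left out. The scripts were tested on simulated data.

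Members and gene lists were chosen with earlier results of these data known. Lists were matched by symbol or synonym; only 388 of the genes carry a symbol, so most loci are in no list. Genes named are, in each direction, up to 10 with the lowest p, 5 with a symbol with the lowest p, 5 without overlap, 2 per list with the lowest p and 5 in the contrast of the doses; further list members are given by value, and those in which replicate 1 at 250 ng/bee stood apart were chosen after their values were seen. One gene that this rule takes is not reported here. No 2 libraries were near duplicates. No sequences were used.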

Additional observations from a re-analysis of the deposited data

Results flagged for a closer look

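A library was singled out when its distance to the nearest library of its group was large beside the range of the group (Dixon's criterion at 95%). Of 296 values and groups examined 38 met this, where about 15 are met by chance, since the criterion takes about 1 in 20 groups. Replicate 1 at 250 ng/bee accounts for 11 of the 38. Some genes examined, such as LOC727048, LOC100578259 and LOC413200, were chosen because that library stood apart in them. A library can also count both among all exposed libraries and within its dose. The counts are therefore a description and cannot be weighed against the chance number. It had the largest total count, 29208991, and the highest exposed levels of Def1 (29202 CPM), Rpl41 (508 CPM), RpL32 (638 CPM) and LOC413200 (26.4 CPM). Within its dose it also stood high in CYP6AQ1 (55.3 CPM). It stood lowest in LOC727048 (5.09 CPM) and LOC100578259 (16.5 CPM), among all exposed libraries as well as within its dose.

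Replicate 3 at 25 ng/bee stood high in the antimicrobial and recognition genes Apid1 (430 CPM), LOC406142 (1680 CPM), LOC406144 (1063 CPM) and PGRP-S3 (44.0 CPM), and also in Per (33.5 CPM) and AGLU2 (139 CPM). Replicate 3 at 250 ng/bee stood above its dose in LOC406144 (611 CPM). Control replicate 4 stood above the other controls in Apid1 (3538 CPM), LOC406142 (4832 CPM) and LOC406144 (4386 CPM). Control replicate 5 did so in TpnCIIIa (207 CPM), in the summed muscle share (0.0901% of counts), and in LOC726377 (6.50 CPM), Syx1A (573 CPM), mGlutR1 (60.9 CPM) and Para (350.4 CPM).

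Replicate 4 at 250 ng/bee held the highest exposed share of muscle transcripts, 0.137% of counts, and of fat body and haemolymph transcripts, 0.459%. The remaining cases were replicate 5 at 250 ng/bee for LOC412194 (117 CPM), replicate 2 at 250 ng/bee for a low Per (15.5 CPM), replicate 2 at 25 ng/bee for Syx1A (499 CPM) and Para (346 CPM), and replicate 1 at 25 ng/bee for Lop1 (8446 CPM). What sets these libraries apart was not tested.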

How the results depend on the processing

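With all 15 libraries the count of genes passing between exposed and control bees stayed at 0 under every tool, scaling and filter run and with each library left out, while the number at an unadjusted p under 0.05 was 362 to 1419 over the libraries left out, 506 with the length trend removed and 1938 in limma-voom with sample weights. Without replicate 1 at 250 ng/bee the tool decided the call: edgeR gave 0, DESeq2 gave 127 and limma-voom 35. All of these genes were also under 0.05 unadjusted at each dose. The doses were read in the same exposed and control libraries that gave the calls, so this is no separate support. The cause of the difference between the tools was not tested. For 250 ng/bee against control (alternatives added after seeing the data) edgeR gave 0, DESeq2 53 and limma-voom 390 with 15 libraries, and 0 to 248 over the libraries left out. With 14 libraries edgeR gave 248, DESeq2 798, limma-voom 892, the replicate block 665 and removal of the length trend 65, and the range over the libraries left out was 0 to 463. For 25 ng/bee against control every setting gave 0. For 250 against 25 ng/bee DESeq2 gave 3. Leaving out 1 library at a time, edgeR gave 0 to 0 genes passing in the pooled and common comparisons and between the 2 doses, with either set. The genes without overlap then numbered 7 to 50 with 15 libraries and 47 to 121 with 14. Transcripts passing numbered 0 to 1 with 15 libraries (1 each without replicate 3 and without replicate 4 at 250 ng/bee) and 0 to 2 with 14 libraries, and 1 with 14 libraries and the filter of FPKM above 0. Of the 65 genes followed with 15 libraries, none passed in any setting, and only Def1 changed sign, from 0.01 to -0.13 with the length trend removed, -0.16 in limma-voom, -0.015 with the replicate block and, leaving out 1 library at a time, -0.20 to 0.21.

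Of 15 pairs of libraries with the same number, 6 had deviations correlated over 0.1 (-0.08 to 0.33, median 0.07), against 8 of 60 pairs with other numbers (-0.28 to 0.32, median -0.02). The labels name no shared origin and 9 of the 15 were not over 0.1, so the main fit did not take the numbers as pairs. Pairs with the same number were over 0.1 more often than the others, and whether they share an origin was not tested. With the replicate block 0 genes passed in the pooled comparison, 848 were under 0.05 unadjusted with 15 libraries and 1563 with 14, and the genes common to both doses by unadjusted p numbered 179 and 527. Counts per gene limit the precision of weakly expressed genes such as LOC726377 and nAChRb1.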
